A study of Mus musculus with 5 samples.

Results

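The 8 genes Dscaml1, Ptprt, Cdh8, Dner, Fstl4, Kremen2, Tmem108 and Xkr4, most of them best known from the nervous system, were followed in the nuclei of mouse hindlimb muscle. They were 8 of the 32285 genes counted and were taken by symbol. They had been picked because earlier results on these same libraries placed them high in the myonuclei of the E14.5 embryo and low later, and some of them higher again in the knockout. The levels that follow are therefore a description with no test. Myonuclei, the nuclei inside muscle fibers, were taken as nuclei in which Ttn, the gene of the giant sarcomere protein titin, held at least 1% of the unique molecular identifiers (UMIs) of all genes. Pax7 positive nuclei, which include muscle stem cells and fetal progenitors, had at least 1 UMI of Pax7 and less Ttn than that. In the E14.5 library 122 myonuclei had between 1 and 1.2% Ttn, and 88 nuclei with between 0.8 and 1% lay just outside.

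Gene expression and chromatin accessibility had been measured together in single nuclei, in 5 libraries of C57bl6n mice. Wild-type (WT) hindlimb muscle gave 4 of them, at E14.5, E18.5, postnatal day 5 (P5) and an adult age. The other came from E18.5 fetuses that were Cacna1s-/- (KO) and thus lacked Cav1.1, the voltage sensor that couples excitation to contraction. Each group was 1 library from 56, 14, 8, 4 and 26 pooled hindlimbs respectively, with the KO last, so no value has a check by replicates and no p-value is given. Unless other stages are named, 5 values in a row are those of the WT libraries from youngest to oldest, followed by the KO. Intervals are exact 95% intervals and cover counting error only. Nuclei had been sorted on PCM1, a marker of myonuclei, and both fractions mixed, so the shares of cell classes were set by the sort.

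Skeletal muscle fibers form by fusion of myoblasts, first in a primary and later in a secondary wave, while motor axons grow into the limb and form synapses on the new fibers. Growing axons and fibers both carry adhesion molecules, receptors and secreted regulators of the kind these genes encode. The roles of most are known from neurons, where they take part in cell recognition, Notch signaling and membrane traffic. Kremen2 is known as a receptor that limits Wnt signaling.

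After filtering, 1867, 1579, 1733, 4429 and 987 myonuclei were left, with between 10156121 and 19758491 UMIs in all and medians of 3356 to 10333 UMIs per nucleus. Pax7 positive nuclei numbered 218, 178, 89, 25 and 378. The 25 adult ones held 31551 UMIs in all and no UMI of the 8 genes, which placed Xkr4 at least 1.45-fold below its level of 138 CPM at P5 and left the other seven unmeasured between these stages. Levels are UMIs per 1000000 UMIs of the class (CPM). Cacna1s had 189 CPM in WT myonuclei at E18.5 and 0.720 CPM, from 8 UMIs, in KO myonuclei. All 12 myonuclear markers were present in E14.5 myonuclei. The 12 neuron markers summed to 143, 24.2, 31.2, 2.18 and 34.8 CPM in the myonuclei of the 5 libraries, led at E14.5 by Syt1 with 58.4 CPM and Elavl4 with 51.2 CPM, and none of the 12 was at 0 at that age. Of these markers, Nefl and Chat were at 0 in E18.5, adult and KO myonuclei. A UMI of the 12 was present in 512 of 1867 E14.5 myonuclei, 161 of 1579 at E18.5 and 144 of 987 in the KO. Pairs of libraries shared between 17 and 47 barcodes.

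Of the 8 genes, 6 had an entry among RefSeq promoters, which gave 7 windows of 250 bases before a start (GRCm38.p6, the build called mm10 in the files). Sequence that the gene annotation already counts as transcribed was left off. The windows of 4 genes are shown because their start-site peaks or RNA set them apart in the results. Kremen2 had a called peak at E14.5 only. Fstl4 and Dner moved together among E14.5 myonuclei and were both higher in the KO. Cdh8 stayed high at E18.5. Capitals mark matches, on either strand, to the letters CAGCTG and CAGGTG (E-boxes, bound by myogenic factors among others), GGAATG (a Tead motif), the core Mef2 motif, GGGCGG (a GC box), and TCAGCACC and GGACAG (parts of the motif of Rest, a repressor of neuronal genes). All read 5′ to 3′ along the strand of the gene.
Kremen2, chr17:23745834-23746079, minus strand: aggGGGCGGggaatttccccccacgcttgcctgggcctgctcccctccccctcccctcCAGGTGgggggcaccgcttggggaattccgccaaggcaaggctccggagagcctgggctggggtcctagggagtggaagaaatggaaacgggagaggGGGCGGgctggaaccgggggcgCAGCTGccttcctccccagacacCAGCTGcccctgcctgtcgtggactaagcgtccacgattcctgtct
Fstl4, chr11:52764456-52764633, plus strand: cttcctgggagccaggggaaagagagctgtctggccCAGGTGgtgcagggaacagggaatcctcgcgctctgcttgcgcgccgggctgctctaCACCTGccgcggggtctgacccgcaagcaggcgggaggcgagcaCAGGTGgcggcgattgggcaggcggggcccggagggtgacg
Dner, chr1:84696222-84696471, minus strand: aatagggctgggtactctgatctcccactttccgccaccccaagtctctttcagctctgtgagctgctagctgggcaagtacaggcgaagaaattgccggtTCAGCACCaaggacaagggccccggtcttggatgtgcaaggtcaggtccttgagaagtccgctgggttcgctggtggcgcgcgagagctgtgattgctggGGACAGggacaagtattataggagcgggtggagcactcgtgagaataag
Cdh8, chr8:99416472-99416721, minus strand: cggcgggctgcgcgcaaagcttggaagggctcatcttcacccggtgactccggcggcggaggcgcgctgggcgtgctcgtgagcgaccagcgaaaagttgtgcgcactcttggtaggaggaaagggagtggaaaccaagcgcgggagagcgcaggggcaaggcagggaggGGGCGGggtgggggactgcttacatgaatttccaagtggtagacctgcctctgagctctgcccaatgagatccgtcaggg

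Kremen2 thus held 2 CAGCTG, 1 CAGGTG and 2 GC boxes, Fstl4 held 3 CAGGTG, Dner held 1 of each part of the Rest motif, and Cdh8 held 1 GC box. Over the 7 full windows, CAGCTG was found in 2, CAGGTG in 2, GGAATG in 1, the Mef2 motif in 0, GGGCGG in 5, TCAGCACC in 1 and GGACAG in 3. Among 32851 RefSeq promoter windows of the same length these letters occurred in 13.0%, 17.2%, 12.6%, 3.20%, 32.7%, 1.32% and 18.7%. The GC content of the 7 windows ranged from 51.6% at a second start of Tmem108 to 76.4% at Ptprt, against a median of 52.4% over all windows. A match is only a description of these letters.

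At E14.5 all 8 genes were well counted in myonuclei, from 404 UMIs for Kremen2 to 10209 UMIs for Tmem108. Tmem108 ranked 106th and Ptprt 145th by UMIs among 12990 genes with at least 20 UMIs there, ranks that also follow the length of a gene because intronic reads were counted. The genes span from 4637 bp, for Kremen2, to 1139158 bp, for Ptprt, so levels are compared within a gene only. Beside a background of 9.94% of 14560 measured genes, 7 of the 8 genes were at least 2-fold lower in E18.5 than in E14.5 myonuclei, a count that their choice had fixed. The median log2 ratio was -4.94 for the 8 genes and 0.17 for all genes. A gene counted as measured with at least 20 UMIs in 1 of both groups.

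**Figure D1:**
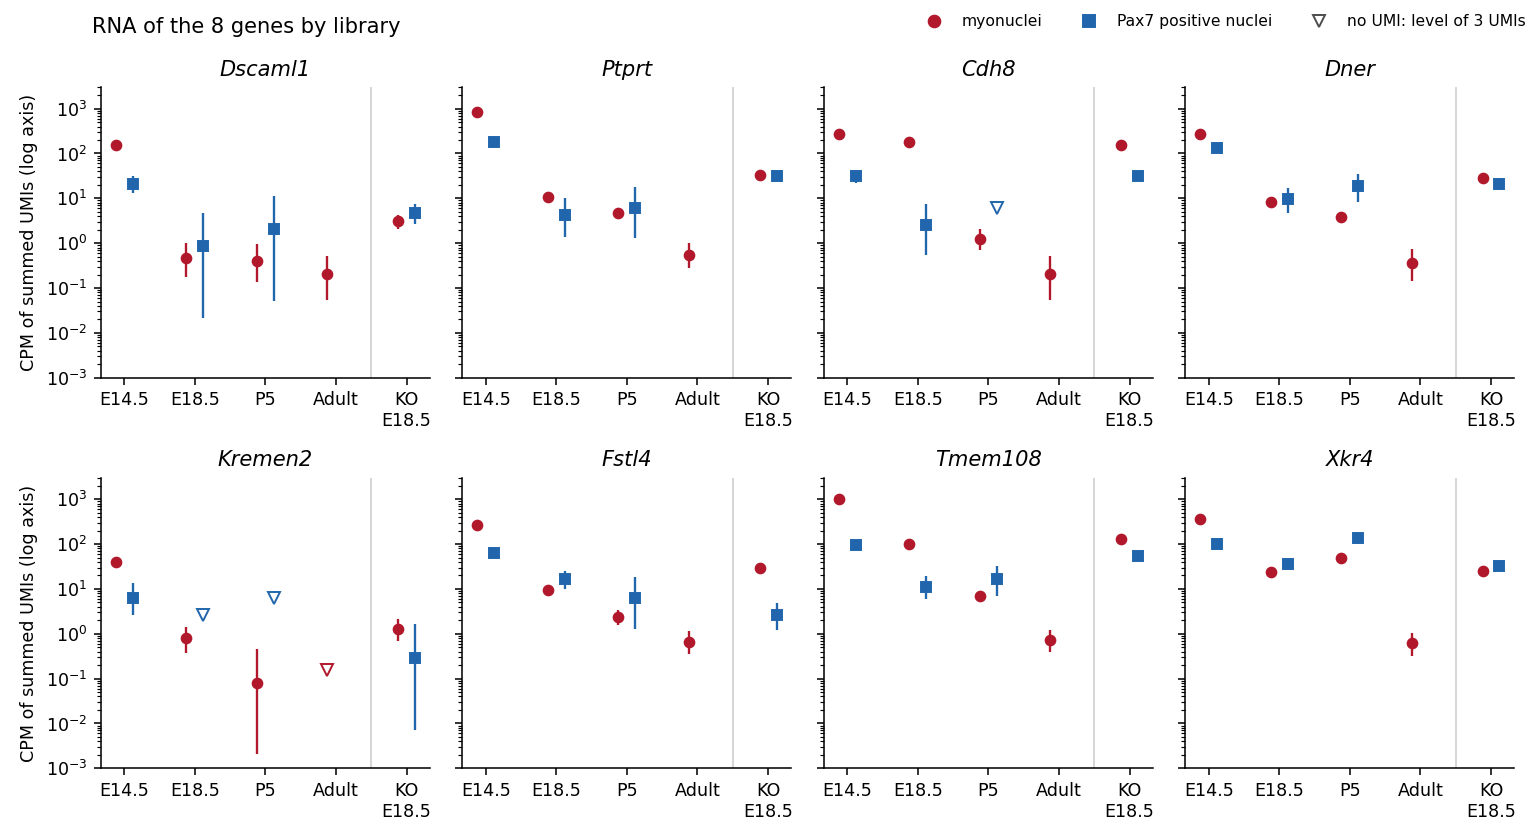
RNA of each gene as CPM of summed UMIs (log axis) in myonuclei (circles) and Pax7 positive nuclei (squares) of the 5 libraries, with exact Poisson 95% intervals; open triangles stand at the level of 3 UMIs where none was found, and adult Pax7 positive nuclei are left out. Myonuclei sat highest at E14.5 for every gene, and Cdh8 alone stayed near that level at E18.5, with 181 CPM against 275 CPM.

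Dscaml1, Ptprt and Cdh8 encode adhesion molecules or receptors of the cell surface. Dscaml1, an immunoglobulin-type adhesion molecule that guides self-avoidance of retinal neurons, lies at chr9:45426628-45753712. Its myonuclear level was 156, 0.473, 0.409, 0.202 and 3.06 CPM. It was thus found almost wholly at E14.5, 329-fold (151 to 897) above E18.5, where 6 UMIs remained. Ptprt, a receptor-type tyrosine phosphatase with an adhesive outer part (chr2:161521990-162661147), had 832, 10.7, 4.66, 0.557 and 33.4 CPM. Its level was lower at each later stage, by 78.1-fold (65.9 to 93.3) at E18.5, 2.29-fold (1.67 to 3.17) from E18.5 to P5 and 8.37-fold from P5 to adult. Cdh8, a type II cadherin of synapses (chr8:99024471-99416471), followed a later course, with 275, 181, 1.23, 0.202 and 153 CPM. It was 1.51-fold lower (1.43 to 1.60) at E18.5 and 148-fold lower (89.5 to 265) at P5 than at E18.5.

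The next pair act outside the cell or between cells. Dner, a transmembrane protein with EGF-like repeats that can act as a Notch ligand (chr1:84369839-84696221), had 274, 8.29, 3.76, 0.354 and 28.6 CPM in myonuclei. Fstl4, a secreted relative of follistatin (chr11:52764634-53188538), had 264, 9.31, 2.37, 0.658 and 29.5 CPM. The courses of the pair were close, with levels 33.1-fold (27.2 to 40.6) and 28.3-fold (23.5 to 34.3) lower at E18.5 than at E14.5, and higher in the KO than in WT of the same age.

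Kremen2, a receptor for Dickkopf proteins that limits Wnt signaling, is the short gene of the group (chr17:23741197-23745833). Its level was 39.8, 0.789, 0.0818, 0 and 1.26 CPM, 50.4-fold lower (27.1 to 106) at E18.5, and no UMI was found in adult myonuclei. Tmem108, a membrane protein of endosomal traffic in neurons (chr9:103482947-103761837), had 1005, 98.3, 6.95, 0.709 and 129 CPM. It was lower in 3 steps of like size, 10.2-fold (9.64 to 10.9), 14.1-fold (11.3 to 17.8) and 9.81-fold (5.54 to 18.7). Xkr4, a member of the XK family of lipid scramblases (chr1:3205901-3671498), had 362, 23.9, 48.4, 0.607 and 25.7 CPM and was the exception to a steady decline, with a level 2.02-fold higher (1.76 to 2.33) at P5 than at E18.5.

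From E18.5 to P5, 5 of 6 measured genes were at least 2-fold lower, beside 21.4% of all genes, and Xkr4 was the 1 gene at least 2-fold higher, beside 7.68%. From P5 to adult all 5 measured genes were at least 2-fold lower, beside 33.8% of all genes, with Xkr4 79.7-fold (45.3 to 155) and Dner 10.6-fold (4.76 to 27.9) lower. The median log2 ratios were -1.58 over the 6 and -3.29 over the 5 measured genes, and -0.37 and -0.40 for all genes. With TMM scaling, which moved the median of all genes from -0.37 to -0.03 for P5 against E18.5, 3 genes instead of 5 were at least 2-fold lower at P5.

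The Xkr4 level at E18.5 and P5 rested largely on myonuclei that also held RNA of connective tissue. All 10 of the E18.5 myonuclei with most Xkr4 UMIs had at least 5 UMIs of mesenchymal markers, with a median of 93, and Scrublet called 9 of the 10 doublets. Without nuclei that had 2 or more such UMIs, an alternative chosen after the data were seen, Xkr4 had 405, 5.11, 2.71, 0.363 and 19.6 CPM in myonuclei. The higher level at P5 was then gone, with a log2 ratio of -0.92 in place of 1.02. In mesenchymal nuclei themselves Xkr4 had 211, 201, 350, 95.5 and 103 CPM, with a 1.05-fold difference (0.984 to 1.12) between E14.5 and E18.5. Schwann cell and glial nuclei also held it, with 270 CPM in the youngest library and 1070, 1985 and 678 CPM at E18.5, P5 and in the KO. Mesenchymal markers summed to 219, 901, 827, 39.4 and 399 CPM in the myonuclei of the 5 libraries, with Gsn leading at E14.5 and Col1a1 at E18.5.

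The 8 genes were present in many E14.5 myonuclei rather than in a few. After every nucleus was thinned to 1000 UMIs, a UMI was found in 52.1% of E14.5 myonuclei for Tmem108, 40.6% for Ptprt, 20.1% for Dner, 18.48% for Fstl4, 16.9% for Xkr4, 11.4% for Cdh8, 9.95% for Dscaml1 and 4.26% for Kremen2. The thinned nuclei numbered 1829, and unthinned shares ran from 17.2% for Kremen2 to 81.7% for Tmem108. In E14.5 endothelial nuclei, with a median of 4079.5 UMIs against 4877 in myonuclei, the thinned share was 0 of 118 for Dscaml1, Ptprt, Cdh8, Dner and Kremen2, which allows up to 2.54%, 1.69% for Fstl4 and Tmem108, and 2.54% for Xkr4. At E18.5 the thinned myonuclear shares were 5.97% for Tmem108, 5.27% for Cdh8, 1.21% for Xkr4 and under 1% for each of the other five, with endothelial shares of 4.67% for Tmem108 and 1.87% for Xkr4. The endothelial shares of Ptprt, Dner and Fstl4 were 0.935% each, with 3, 3 and 4 UMIs before thinning, too few to set a background. At this depth the E18.5 myonuclear shares of Dner, Fstl4 and Xkr4 were no higher than the endothelial ones. That of Ptprt, 0.953%, was close to its endothelial share, and the interval of Tmem108 (4.85 to 7.26) overlapped that of endothelial nuclei. Only the share of Cdh8, with no UMI in 107 endothelial nuclei, which allows up to 2.80%, stood clear of its endothelial share. Without thinning, the E18.5 endothelial level was 1.23% of the myonuclear level for the fiber gene Trdn and 4.25% for Ryr1. It was 69.1% for Tmem108 and 232% for Xkr4, and the source of that RNA was not tested. In E14.5 myonuclei thinned to the same depth, 11.5% held none of the 8 genes and 21.7% held 3 or more. The share with none was 86.2%, 95.8% and 99.5% at the later WT stages and 81.1% in the KO.

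**Figure D2:**
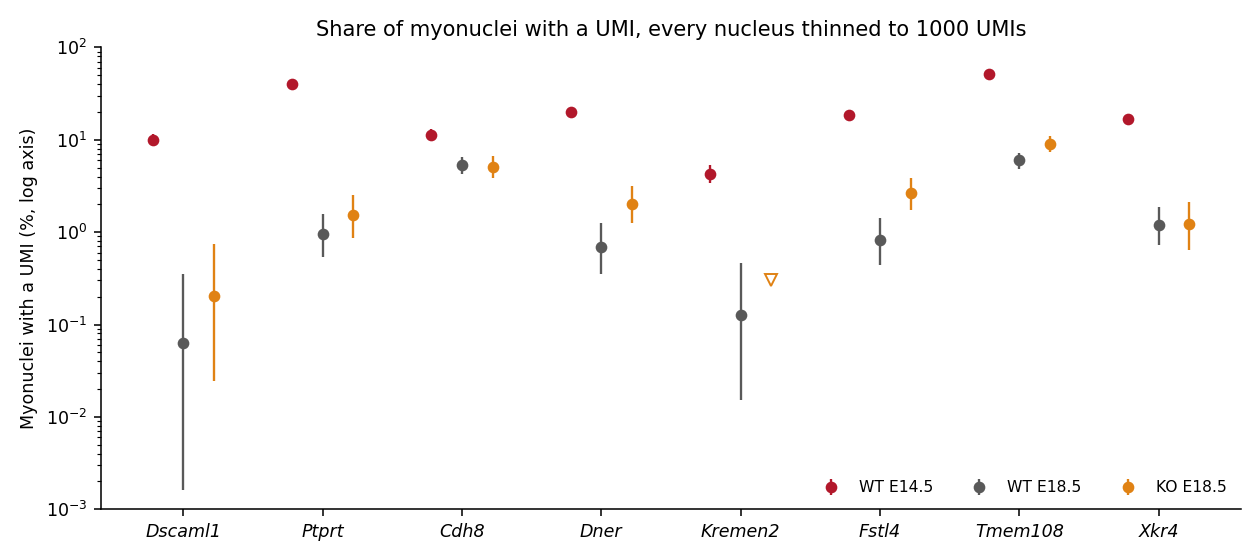
Share of myonuclei with at least 1 UMI of each gene after thinning every nucleus to 1000 UMIs (percent, log axis), in WT at E14.5, WT at E18.5 and KO at E18.5, with exact binomial 95% intervals; the open triangle is the upper limit for 0 of 980 KO myonuclei with Kremen2. The E14.5 points lie between 4.26% and 52.1%, above both E18.5 libraries for every gene. The KO and WT intervals at E18.5 lie apart for Fstl4 and Tmem108 and nearly meet for Dner. Each genotype is 1 library, so the intervals do not test it.

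At E14.5 all 8 genes were at least 2-fold higher in myonuclei than in Pax7 positive nuclei, beside 14.3% of 12943 genes. Tmem108 was 10.7-fold higher (8.83 to 13.2), with 93.7 CPM in Pax7 positive nuclei, and Cdh8 8.79-fold (6.28 to 12.7), with 31.2 CPM. Dner had the smallest excess, 2.09-fold (1.76 to 2.49), with 131 CPM in Pax7 positive nuclei and 403 CPM in committed nuclei, which had a Myog UMI, no Pax7 UMI and little Ttn. Dner was thus well counted also in nuclei with little Ttn. Relative to E14.5 myonuclei, committed nuclei stood at 147% (126 to 171) for Dner, 123% (76.4 to 189) for Kremen2 and 82.0% (66.2 to 100) for Fstl4. The values were 47.3% for Dscaml1, 37.5% for Ptprt, 37.0% for Tmem108, 36.9% for Xkr4 and 19.5% for Cdh8. For Dner, Kremen2 and Fstl4, myonuclei thus had no clear excess over committed nuclei. At E18.5 the excess of Cdh8 over Pax7 positive nuclei was 70.3-fold (24.0 to 341), with 3 UMIs in those nuclei. At that age 3 of 6 measured genes were at least 2-fold higher in myonuclei than in Pax7 positive nuclei, beside 15% of genes. At P5 it was 0 of 5, beside 11.6%, and 4 of the 5 were at least 2-fold lower in myonuclei, beside 36%, among them Dner, 4.93-fold (2.12 to 10.2), and Xkr4, 2.85-fold (2.18 to 3.67). In adult none of the 8 was measured, and 10.4% of all genes were at least 2-fold higher in myonuclei.

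Lower levels after E14.5 were also found outside fibers. In committed nuclei the median log2 ratio of E18.5 over E14.5 was -3.03 for the 8 genes and 0.15 for all genes. In Pax7 positive nuclei all 7 measured genes were at least 2-fold lower at E18.5 than at E14.5, beside 6.57% of genes. Ptprt was 41.2-fold lower (17.3 to 128), Dscaml1 24.5-fold (3.98 to 1010.5) with 1 UMI left, Dner 13.9-fold (7.52 to 28.4), Cdh8 12.1-fold (3.801 to 61.5) with 3 UMIs left, Tmem108 8.37-fold (4.68 to 16.3), Fstl4 3.87-fold (2.30 to 6.82) and Xkr4 2.72-fold (1.89 to 3.98), while Kremen2, with 7 UMIs at E14.5 and none at E18.5, was not measured. RNA of fiber genes was present in these nuclei too. Relative to E14.5 myonuclei, E14.5 Pax7 positive nuclei held 14.0% of Neb, which encodes the fiber protein nebulin, 25.9% of Ryr1, 34.9% of Mybpc1 and 5.11% of Trdn. The 8 genes stood at 47.9% for Dner, 27.1% for Xkr4, 24.0% for Fstl4, 21.3% for Ptprt, 16.2% for Kremen2, 13.6% for Dscaml1, 11.4% for Cdh8 and 9.32% for Tmem108. The last 3 thus lay under Neb, and Dner was the 1 gene above all 4 fiber genes. The part of fiber RNA in these values was not tested. In mesenchymal nuclei 7 of 8 were, beside 9.76%, with Ptprt at 162 CPM at E14.5 and 6.79 CPM at E18.5, and Xkr4 was the gene that was not. The levels were lower by 23.8-fold (19.2 to 29.8) for Ptprt, 18.002-fold (9.94 to 35.8) for Dscaml1, 14.3-fold (11.6 to 17.8) for Cdh8, at least 12.5-fold for Kremen2, 7.24-fold (5.38 to 9.88) for Dner, 6.26-fold (5.55 to 7.07) for Tmem108 and 3.64-fold (2.94 to 4.53) for Fstl4. Levels in E14.5 mesenchymal nuclei stood at 58.2% of the myonuclear level for Xkr4, 40.1% for Cdh8, 19.4% for Ptprt, 16.4% for Tmem108, 13.3% for Fstl4, 11.2% for Dner, 10.5% for Dscaml1 and 7.11% for Kremen2. Neb stood at 5.48% in those nuclei, Ryr1 at 5.46%, Trdn at 4.60% and Mybpc1 at 6.68%, each below the values of the 8 genes. For Kremen2, with 21 UMIs, the interval reached down to 4.35%, under all 4 fiber genes. Its mesenchymal level was thus not set apart from theirs. The part of fiber RNA in the mesenchymal values was not tested either. In 35 nuclei with neuron markers at E14.5, Xkr4 had 1041 CPM, Ptprt 968 CPM, Tmem108 334 CPM, Cdh8 217 CPM, Dner 211 CPM, Fstl4 61.2 CPM and Dscaml1 55.7 CPM, and Kremen2 had no UMI. Ptprt and Xkr4 thus had more CPM in these 35 nuclei than in myonuclei, and each of the other genes had less. Leaving out the myonuclei with 2 or more UMIs of neuron or Schwann markers kept 1297 of 1867 in the youngest library. Cdh8 then had 221 CPM against 275 CPM in all myonuclei, and Xkr4 288 against 362 CPM. Levels were higher for Dner, 316 against 274 CPM, and Fstl4, 304 against 264 CPM. The same held for Dscaml1, 175 against 156 CPM, and Kremen2, 46.9 against 39.8 CPM. Ptprt, 853 against 832 CPM, and Tmem108, 1004 against 1005 CPM, differed little.

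Opposite patterns were seen among E14.5 myonuclei. Nuclei were split by Col25a1, which encodes a transmembrane collagen needed for motor innervation, and by Col22a1, which encodes a collagen of the myotendinous junction, each at 0.1% of UMIs or more. The 467 nuclei with Col25a1 had 3.18-fold (2.94 to 3.43) more Fstl4 and 2.86-fold (2.65 to 3.08) more Dner than those without. The same nuclei had 12.2-fold (9.93 to 15.1) less Xkr4 and 5.68-fold (4.82 to 6.74) less Cdh8. The split by Col22a1, with 477 nuclei, ran the other way, with 8.19-fold (7.58 to 8.86) more Xkr4, 10.9-fold (8.92 to 13.5) less Fstl4 and 6.24-fold (5.35 to 7.31) less Dner. Ptprt was 1.85-fold higher (1.77 to 1.93) with Col25a1 and 1.63-fold lower (1.55 to 1.72) with Col22a1, and Kremen2 1.64-fold higher (1.33 to 2.02) and 2.26-fold lower (1.73 to 3.01). Tmem108 was 1.30-fold lower (1.23 to 1.36) with Col25a1 and 1.46-fold higher (1.40 to 1.52) with Col22a1, and Cdh8 was 1.82-fold higher (1.69 to 1.96) with Col22a1. Dscaml1 differed little in either split, by 1.25-fold (1.12 to 1.40) and 1.22-fold (1.09 to 1.37). Xkr4 in nuclei with Col22a1 reached 950 CPM, against 116 CPM in those without. Over the 1867 nuclei Spearman's rho of normalized levels was 0.35 for Cdh8 and Xkr4, 0.30 for Dner and Fstl4, and -0.31 for both Dner and Fstl4 with Xkr4. These points share 1 library and are sparse counts, so the correlations are descriptive. Both splits used the same RNA counts, and nuclei of 1 library are not replicates.

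**Figure D3:**
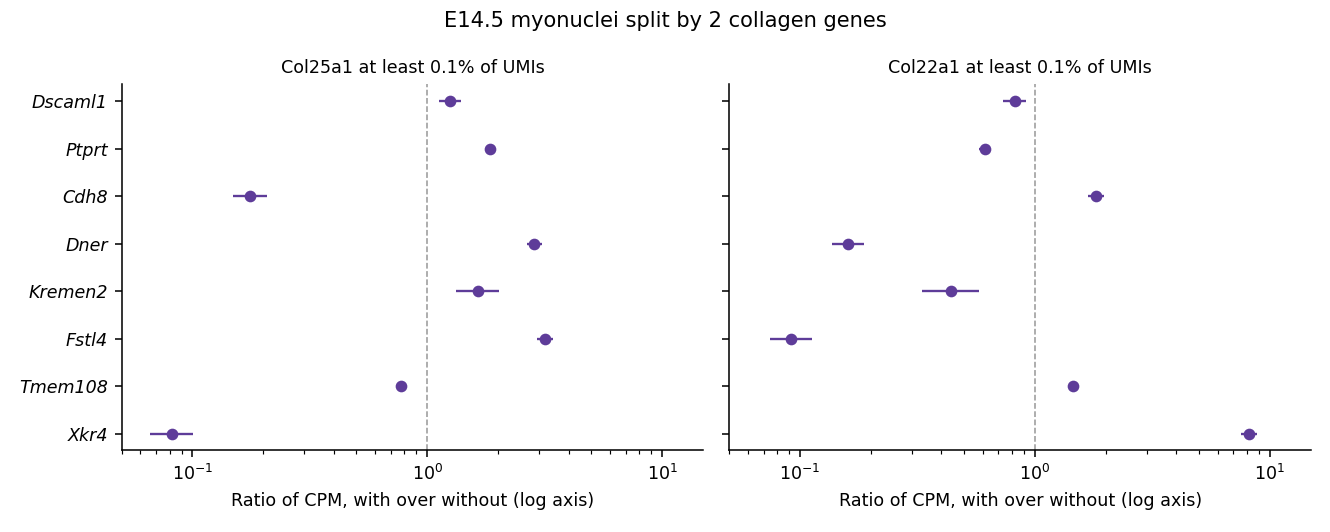
Ratio of CPM between E14.5 myonuclei with and without Col25a1 (left) or Col22a1 (right) at 0.1% of UMIs or more (log axis, dashed line at 1), with exact conditional 95% intervals. Fstl4 and Dner lie right of the line for Col25a1 and left of it for Col22a1, and Xkr4 and Cdh8 lie on the opposite sides.

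These patterns were partly present later. Spearman's rho for Dner and Fstl4 was only 0.030 in WT E18.5 and 0.051 in KO myonuclei. For Cdh8 and Xkr4 it was 0.030 and 0.048. Fstl4 in WT E18.5 myonuclei was 7.27-fold (4.97 to 10.6) higher with Col25a1 than without, and Cdh8 18.4-fold (11.3 to 32.2) lower. In KO myonuclei Cdh8 was 69.2-fold (45.1 to 112) lower with Col25a1, and Xkr4 17.8-fold (13.3 to 23.6) higher with Col22a1, with 13 KO myonuclei on that side. Ptprt in those 13 nuclei was 9.21-fold higher (6.69 to 12.4), at 271 CPM, the opposite direction to that at E14.5. The share of myonuclei with Col25a1 was 25.01%, 10.8%, 2.77%, 0.0452% and 45.7%. KO myonuclei thus held the largest share of nuclei with Col25a1 of the 5 libraries.

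In the KO a part of the group was higher than in WT myonuclei of the same age, but far below the E14.5 level. Of 7 measured genes 4 were at least 2-fold higher, beside 6.2% of 14589 genes: Dscaml1 6.47-fold (2.68 to 18.8), Dner 3.46-fold (2.76 to 4.35), Fstl4 3.17-fold (2.56 to 3.95) and Ptprt 3.14-fold (2.57 to 3.85). Tmem108 was 1.31-fold higher (1.22 to 1.42), Xkr4 differed by 1.07-fold (0.910 to 1.27) over all myonuclei, Cdh8 was 1.19-fold lower (1.12 to 1.27), and Kremen2 had 14 UMIs against 10. The near-equal level of Xkr4 rested on myonuclei with RNA of connective tissue, since it was 19.6 CPM in the KO and 5.11 CPM in WT without those with mesenchymal UMIs, and 19.3 against 6.52 CPM without nuclei called doublets. The median log2 ratio was 1.65 over the 7 genes and -0.03 over all genes. A higher level of some genes in this same KO library had been part of their choice. The count of 4 and this median were thus partly set by that choice and do not measure an excess over all genes. Relative to E14.5 WT myonuclei, the KO level was 11.2% for Fstl4, where WT at E18.5 had 3.53%, and 10.4% for Dner, where WT had 3.02%. It was 4.02% for Ptprt, with 1.28% in WT, and 1.97% for Dscaml1, with 0.304% in WT. For Tmem108 it was 12.9% against 9.78%, for Xkr4 7.09% against 6.60% with those nuclei included, for Kremen2 3.17% against 1.98%, and for Cdh8 55.6% against 66.1%.

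Part of this rested on few nuclei. The 10 KO myonuclei with most UMIs of a gene held 97.1% of its UMIs for Dscaml1 and 70.1% for Ptprt, but 34.1% for Fstl4 and 25.2% for Dner. In E14.5 myonuclei that share was between 3.20 and 16.5% for the 8 genes. In WT E18.5 myonuclei it was 100% for Dscaml1, with 6 UMIs, 40.7% for Ptprt, 44.9% for Fstl4 and 39.0% for Dner. For Xkr4 it was 66.3% in the KO and 42.2% in WT at E18.5. One KO myonucleus held 22 of the 34 Dscaml1 UMIs. Of the 10 KO nuclei with most Ptprt, 5 had at least 5 UMIs of mesenchymal markers and 4 were called doublets, against 162 and 176 of all 987. Without the 10 top nuclei of each gene in both libraries, an alternative chosen after the data were seen, 2 genes, Dner and Fstl4, instead of 4 were at least 2-fold higher in the KO, and Dscaml1 was no longer measured. The log2 ratios were then 2.09 for Dner, 1.92 for Fstl4, 0.66 for Ptprt and 0.37 for Tmem108. On thinned shares, Fstl4 was found in 2.65% (1.74 to 3.86) of KO and 0.826% (0.440 to 1.41) of WT myonuclei. Dner was found in 2.04% (1.25 to 3.13) and 0.699% (0.349 to 1.25), Ptprt in 1.53% (0.859 to 2.51) and 0.953% (0.534 to 1.57). The intervals of Fstl4 lay apart, those of Dner met at 1.25%, and those of Ptprt overlapped. They cover the counting of nuclei after a random thinning. Nuclei of 1 library per genotype are not replicates, so the intervals do not test the genotype. In KO endothelial nuclei, with a median of 7912.5 UMIs against 10333, the thinned share was 1.149% for Dner and Ptprt, 3.45% for Tmem108 and 0 of 87 for Fstl4, which allows up to 3.45%.

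The share of myonuclei with Col25a1, 45.7% in the KO and 10.8% in WT, moved with these values. Among myonuclei with Col25a1, Fstl4 differed by 1.18-fold (0.883 to 1.61) between KO and WT, with 46.7 and 39.5 CPM, and among those without it by 2.69-fold (1.92 to 3.799). Dner was higher on both sides, 2.35-fold (1.57 to 3.65) and 2.20-fold (1.61 to 3.02), as was Ptprt, 5.68-fold (2.68 to 14.4) and 3.38-fold (2.71 to 4.23). Cdh8 was 2.72-fold lower (1.33 to 5.48) with Col25a1 and 1.38-fold higher (1.30 to 1.48) without it, so its overall 1.19-fold lower level was not seen in the larger stratum. Tmem108 likewise was 1.35-fold lower (1.12 to 1.62) with Col25a1 and 1.76-fold higher (1.62 to 1.92) without. The part that this share has in the KO values was not tested.

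**Figure D4:**
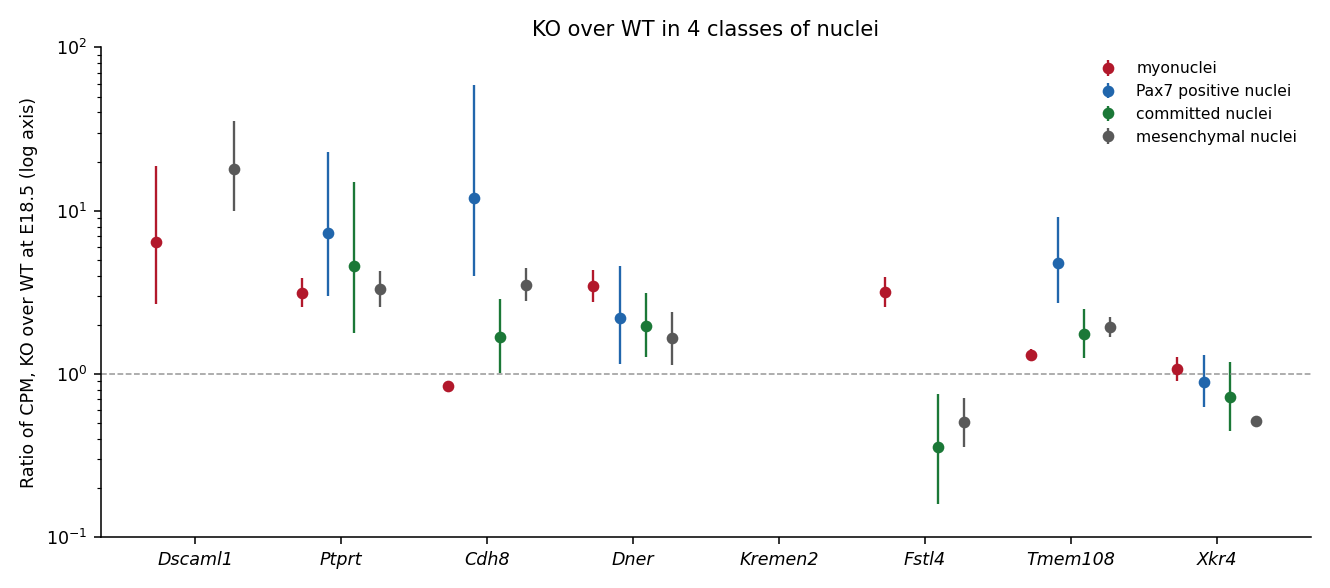
Ratio of CPM between KO and WT at E18.5 (log axis, dashed line at 1) in myonuclei, Pax7 positive, committed and mesenchymal nuclei, with exact conditional 95% intervals, for genes with at least 20 UMIs in 1 of both libraries. Ptprt and Dner lie above 1 in all 4 classes, Cdh8 lies below 1 in myonuclei only, and Fstl4 lies above 1 in myonuclei and below 1 in committed and mesenchymal nuclei.

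Higher KO levels were also found outside fibers. In Pax7 positive nuclei 4 of 5 measured genes were at least 2-fold higher in the KO, beside 8.81% of genes: Cdh8 12.0-fold (3.99 to 59.0), Ptprt 7.26-fold (3.02 to 22.8), Tmem108 4.78-fold (2.73 to 9.15) and Dner 2.20-fold (1.16 to 4.60). These levels rested on few KO nuclei. One nucleus held 59 of the 107 Cdh8 UMIs and one held 70 of the 185 Tmem108 UMIs, and the 10 nuclei with most UMIs held 91.6% of Cdh8, 89.7% of Tmem108, 88.9% of Ptprt and 77.8% of Dner UMIs. The fifth was Xkr4, 1.12-fold lower (0.763 to 1.60), while Fstl4, with 9 UMIs in the KO and 19 in WT, was not measured. In mesenchymal nuclei 3 of 7 were, beside 7.16%: Dscaml1 18.001-fold (10.02 to 35.6), at 16.3 against 0.906 CPM, Cdh8 3.52-fold (2.79 to 4.46) and Ptprt 3.32-fold (2.59 to 4.29). Dscaml1 thus had more CPM in mesenchymal nuclei than in myonuclei of the KO, where it was 3.06 CPM. Within the KO, 3 of 7 genes were at least 2-fold higher in myonuclei than in Pax7 positive nuclei, beside 13.7% of genes, namely Fstl4 11.3-fold (5.90 to 25.02), Cdh8 4.93-fold (4.05 to 6.05) and Tmem108 2.41-fold (2.07 to 2.83). The count was 5 without nuclei with neuron or Schwann UMIs, 5 when Pax7 positive nuclei needed 2 or more Pax7 UMIs, and 6 without nuclei with mesenchymal UMIs, the last chosen after the data were seen.

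Peaks at start sites did not follow RNA levels in every gene. A peak within 1 kb of an annotated start was called for 8, 6, 4, 4 and 6 genes. Over 32158 genes that share was 54.1%, 57.4%, 53.7%, 54.3% and 53.0%. Over 21625 protein-coding genes, the type of all 8, it was 66.4%, 69.0%, 65.9%, 66.0% and 65.2%. Among genes with at least 20 CPM in myonuclei it was 96.9 to 98.5%. Peaks were called within each library over all its nuclei, so a missing peak is not a count of 0. Dner, Fstl4, Tmem108 and Xkr4 had a peak in all 5 libraries. Kremen2 had one at E14.5 only, chr17:23745602-23746472, which spans the window printed above, with 501 counts in myonuclei. Dscaml1 had peaks at E14.5 and in the KO, Ptprt at E14.5, E18.5 and in the KO, and Cdh8 at E14.5 and E18.5. None was called for Cdh8 in the KO, where its myonuclear RNA was 153 CPM. With a window of 2 kb, 7 genes had a peak at E18.5 and 6 each at P5 and in adult, and with at least 100 counts per peak 3 had one in the KO.

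**Figure D5:**
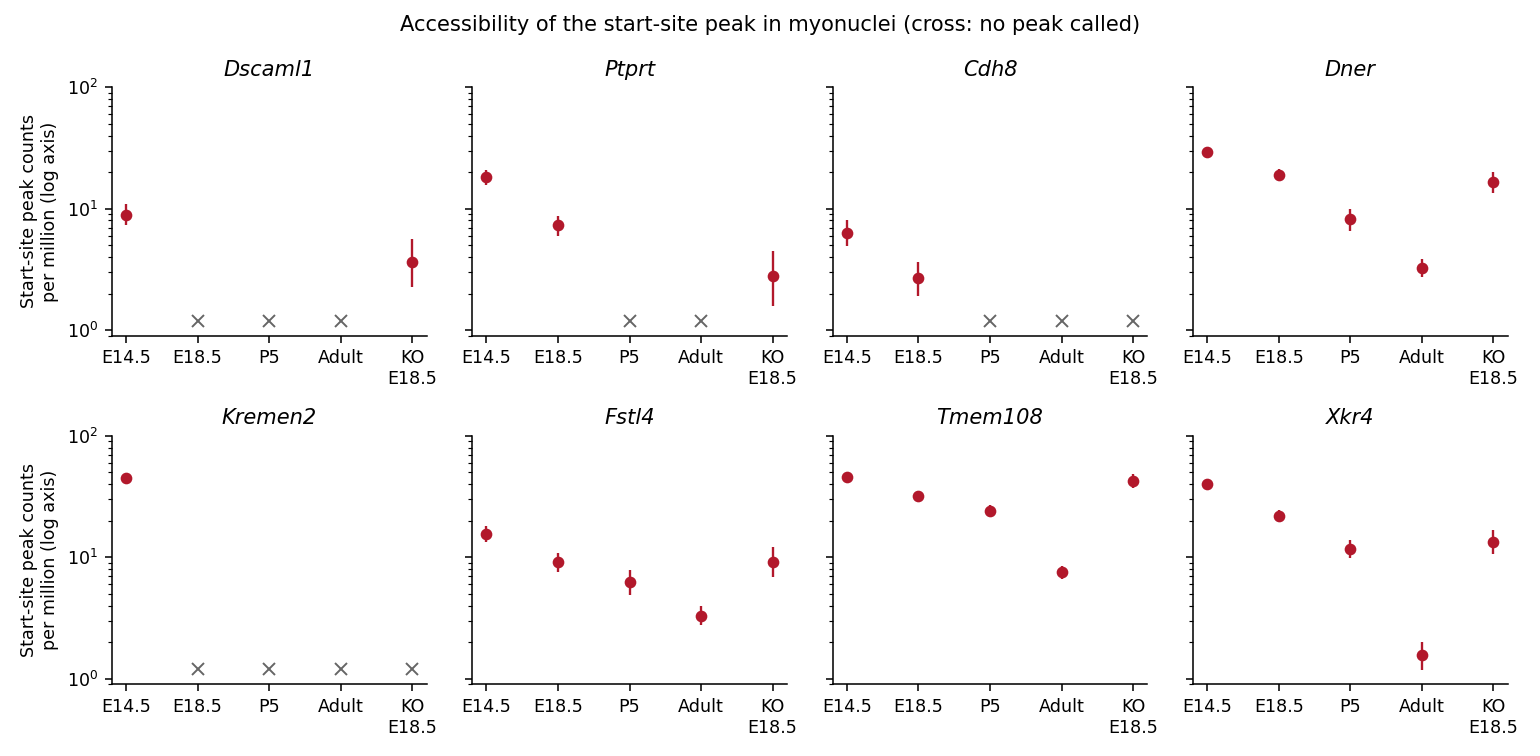
Counts of the called peak over the outermost protein-coding start of each gene in myonuclei, as CPM of all peak counts (log axis), with exact Poisson 95% intervals; crosses mark libraries without a called peak. Dner, Fstl4, Tmem108 and Xkr4 step down from E14.5 to adult, and the KO point of Tmem108, at 42.5, lies above WT E18.5 at 31.9.

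Each library's peaks have their own bounds and peak set, so a ratio between libraries compares their called peaks and not 1 fixed region. At the outermost coding start of Dner, myonuclei had 29.1, 19.1, 8.16, 3.26 and 16.5 CPM of all peak counts. E18.5 was thus 1.53-fold lower (1.30 to 1.80) than E14.5, where the RNA was 33.1-fold lower. At Cdh8 the peak had 6.33 CPM at E14.5 and 2.70 CPM at E18.5, 2.35-fold lower (1.57 to 3.56), where the RNA was 1.51-fold lower. The called peak thus differed less than the RNA at Dner. At Cdh8 the interval of the peak ratio overlapped that of the RNA ratio. At Fstl4 the counts were 15.6, 9.10, 6.21, 3.31 and 9.22 on the same scale, a 1.71-fold (1.36 to 2.16) lower value at E18.5 and a 1.01-fold (0.724 to 1.40) difference between KO and WT. At Dner KO and WT differed by 1.153-fold (0.911 to 1.47). Ptprt had 18.2, 7.28 and 2.78 CPM at E14.5, E18.5 and in the KO, in peaks of 790, 824 and 712 bp with different bounds. Its called peak was 2.50-fold lower (1.97 to 3.19) at E18.5 than at E14.5. In the KO, with 16 counts, it was 2.61-fold lower (1.54 to 4.74) than in WT, where the RNA was higher in the KO. The called peak of Tmem108 had 1.33-fold (1.13 to 1.55) more CPM in the KO than in WT, and that of Xkr4 1.63-fold (1.27 to 2.12) less. Kremen2 and Fstl4 were more open in E14.5 myonuclei than in mesenchymal nuclei, 3.12-fold (2.47 to 3.97) and 2.84-fold (1.94 to 4.29), while Cdh8 was 1.65-fold less open (1.15 to 2.36). Ptprt was 1.44-fold (1.10 to 1.90), Dner 1.74-fold (1.38 to 2.20) and Xkr4 1.24-fold (1.04 to 1.48) more open, Dscaml1 differed by 1.01-fold (0.711 to 1.43) and Tmem108 by 1.08-fold (0.927 to 1.26). Peaks inside the 8 genes numbered 89, 80, 50, 45 and 62 in the 5 libraries, and 25.8% of those at E14.5 were found in no other library, against 14.6% of all E14.5 peaks. In the other four these shares were 10% against 15.1% at E18.5, 6% against 5.43% at P5, 20% against 25.3% in adult and 4.84% against 5.67% in the KO.

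Relatives of these genes went different ways. Of 49 relatives, 36 were measured between E14.5 and E18.5, with 12 at least 2-fold lower and 5 at least 2-fold higher, beside 9.94% and 17.3% of all genes, and a median log2 ratio of -0.18. Between KO and WT, 4 of 35 were at least 2-fold higher and 2 lower, beside 6.2% and 5.52%. From P5 to adult 26 of 35 were at least 2-fold lower, beside 33.8%. Those with at least 20 CPM in the myonuclei of a library are given with their levels at E14.5, at E18.5 and in the KO. Among phosphatases like Ptprt, Ptprm had 1356, 416 and 667 CPM and Ptprk 548, 568 and 811 CPM. Among Notch ligands, receptors and contactins, Cntn6 had 82.8, 14.7 and 10.5 CPM, while Dlk1 had 799, 1384 and 868 CPM. In the same order Jag2 had 52.0, 52.9 and 44.5 CPM, Notch1 16.0, 37.6 and 38.8 CPM, Notch2 135, 167 and 187 CPM, and Notch3 34.4, 23.0 and 37.2 CPM. Of these 6 genes Cntn6 was the 1 at least 2-fold lower at E18.5.

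Cadherins also differed among themselves. Cdh11 had 578, 84.5 and 122 CPM at E14.5, E18.5 and in the KO, Cdh6 22.7, 7.26 and 7.20 CPM, Cdh2 65.1, 29.4 and 46.4 CPM, and Cdh4 42.4, 20.7 and 19.4 CPM. Cdh13 was higher after E14.5, with 569, 1109 and 1588 CPM, and Cdh15, the muscle cadherin, had 93.3, 85.9 and 75.8 CPM. Cdh20 stood out in the KO, with 3.55, 4.97 and 31.5 CPM. Of the follistatin relatives, Fst had 58.6, 12.8 and 20.4 CPM and Fstl1 92.2, 123 and 64.8 CPM. Of the Wnt coreceptor group, Kremen1 had 122, 182 and 224 CPM, Lrp5 110, 44.1 and 51.4 CPM, Lrp6 225, 192 and 227 CPM and Dkk2 45.0, 51.5 and 51.7 CPM. Kremen1, the other Dickkopf receptor, thus had no lower level at E18.5. Xkr6, the relative of Xkr4 with enough RNA, had 59.2, 42.3 and 43.1 CPM.

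Among 40 neuronal adhesion and guidance genes, lower levels at E18.5 were more common. Of 38 measured, 22 were at least 2-fold lower and 2 higher, beside 9.94% and 17.3% of all genes, with a median log2 ratio of -1.28 against 0.17 for all genes. From P5 to adult 29 of 35 were at least 2-fold lower and 2 higher, beside 33.8% and 8.31% of genes. Between KO and WT 7 of 39 were at least 2-fold higher and 1 lower, beside 6.2% and 5.52%, with a median of 0.52 against -0.03. These counts are for myonuclei, and both patterns were also found outside fibers. At E18.5, 25 of 39 were at least 2-fold lower in mesenchymal nuclei, beside 9.76%, and 21 of 35 in Pax7 positive nuclei, beside 6.57%. In the KO, 13 of 38 and 15 of 34 were at least 2-fold higher in these classes, beside 7.16% and 8.81%. As an example from this list, Csmd1, a large membrane protein, had 211, 13.9 and 144 CPM in myonuclei at E14.5, at E18.5 and in the KO. In Pax7 positive nuclei it had 104, 4.30 and 115 CPM, so its higher KO level was not particular to fibers. In myonuclei Unc5d, a netrin receptor, had 130, 5.68 and 33.6 CPM. Dpp10, which binds potassium channels, had 146, 4.18 and 4.23 CPM there and no such return.

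The 10 genes whose course over the 5 libraries was nearest to the median of the 8 genes were taken from 8368 genes with at least 100 UMIs in E14.5 myonuclei, by the distance between changes of log2(CPM + 1) from E14.5. They were Prss12, Cadps, Gm14280, Gja5, Gm49575, D7Ertd443e, Cacna1b, Grid1, Unc5d and Chrm3, at distances from 0.963 to 2.09. Prss12 had 182, 9.63, 1.80, 0.202 and 11.1 CPM in the 5 libraries, and Chrm3, a muscarinic acetylcholine receptor, had 1817, 76.5, 77.8, 4.86 and 168 CPM. Of the 8 genes, Fstl4 and Dner lay closest to the median, at 0.625 and 0.805, and Cdh8 farthest, at 4.82.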

How the data were processed

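Nuclei of 5 libraries were read with the 10x Genomics multiome kit. The authors deposited raw counts, unnormalized, of UMIs for genes and of ATAC signal for peaks. They came from Cell Ranger ARC 2.0.0 on mm10, which counted introns too and found peaks separately in every library. Whether counting used the strand is not given in the sources used here, so reads of overlapping genes cannot be told apart. The KO file lists 3621 barcodes, fewer than the nuclei the study counts for it. Nuclei were kept between 400 and 25000 UMIs if mitochondrial genes had less than 10% of these and ATAC counts stayed below 70000 (4812, 4261, 3747, 5106 and 3228). UMIs were summed per class and given as CPM with exact Poisson intervals; ratios have exact conditional (Clopper-Pearson) 95% intervals, and genes at 0 were set to a floor of 3 counts. Because each group is 1 library, nothing was tested. The calculations were tested on simulated data. Endothelial, mesenchymal, neuron and Schwann nuclei had at least 3 UMIs from at least 2 markers of that class, under 1% Ttn and no Pax7. Doublets were not removed; Scrublet (scanpy 1.11.5) called 279, 403, 0, 0 and 399, so it did not work at P5 and in adult. Python 3.11.15, numpy 2.4.6, scipy 1.17.1 and pandas 2.3.3 were used, with edgeR 4.0.16 and DESeq2 1.42.0 in R 4.3.3 for alternative scaling factors only. The 8 genes, the lists and the rules were chosen with earlier results of these data known. Genes named were the 8, with values for those that could be measured in the main comparisons, relatives from 20 CPM, and the 10 genes of nearest course. Csmd1 and Dpp10 were named as examples outside these rules. Alternatives without nuclei with mesenchymal UMIs, without shared barcodes, without the 10 top nuclei and with the start interval of the files were chosen after seeing the data.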

Additional observations from a re-analysis of the deposited data

Results flagged for a closer look

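In 2 genes the KO and WT levels at E18.5 differed in opposite directions between classes of nuclei, with intervals that did not reach 1. With 1 library per group, the difference between classes was not tested. Cdh8 was 1.19-fold lower (1.12 to 1.27) in KO myonuclei but 12.0-fold higher (3.99 to 59.0) in KO Pax7 positive nuclei, with 107 against 3 UMIs, 3.52-fold higher (2.79 to 4.46) in mesenchymal nuclei, with 264 against 102 UMIs, and 1.69-fold higher (1.02 to 2.90) in committed nuclei, with 57 against 22 UMIs. One KO Pax7 positive nucleus held 59 of the 107 UMIs, and in myonuclei without Col25a1 Cdh8 was instead 1.38-fold higher (1.30 to 1.48) in the KO. Fstl4 was 3.17-fold higher (2.56 to 3.95) in KO myonuclei but 1.96-fold lower (1.40 to 2.80) in mesenchymal nuclei, with 48 against 128 UMIs, and 2.82-fold lower (1.33 to 6.24) in committed nuclei, with 12 against 22 UMIs.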

How the results depend on the processing

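Of 184 counts of genes or peaks under an alternative, 170 stayed within 1.5 times the count reported, and 444 of 671 ratios of single genes stayed within their interval. Some of these could not move. A count that stayed at 0 was taken as unmoved, as for adult myonuclei against Pax7 positive nuclei, where no gene was measured. Scrublet called no nuclei at P5 and in adult, so that alternative left adult against P5 as it was. The 170 are thus no measure of stability. The 7 genes lower in E18.5 than in E14.5 myonuclei, a count that their choice had fixed, were 7 or 8 under every alternative run. For P5 against E18.5, the count of 5 was 3 with TMM factors, 3 with median-of-ratios factors, 2 with thinned nuclei and 3 at 3-fold. For adult against P5, the count of 5 was 1 with thinned nuclei, 3 with a minimum of 50 UMIs, 2 without nuclei with mesenchymal UMIs and 3 without the 10 top nuclei, as fewer genes were then measured. The 4 genes higher in the KO were 2 without the 10 top nuclei. The 3 genes higher in KO myonuclei than in KO Pax7 positive nuclei were 5 without nuclei with neuron or Schwann UMIs, 5 with 2 or more Pax7 UMIs and 6 without nuclei with mesenchymal UMIs. KO start-site peaks were 3 instead of 6 with at least 100 counts, and the median share of E14.5 myonuclei over the 8 genes was 24.8% at 2000 UMIs instead of 17.7%. Other causes were not tested. Direction was reversed for Xkr4 at P5 over E18.5 without nuclei with mesenchymal UMIs (log2 ratio -0.92) and for Ptprt in E18.5 myonuclei over Pax7 positive nuclei with Ttn from 2% (-0.76). No paired analysis was possible because each group is 1 library. In adult Pax7 positive nuclei 7 of the 8 genes were not measured against P5.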
